A study of Mus musculus with 28 samples.

Results

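The genes described here are 6 genes of the response to low oxygen, Hif3a, Hif1a, Epas1, Egln1, Egln3 and Vegfa, out of 21900 protein-coding genes of the annotation used. A chromatin immunoprecipitation (ChIP) peak was given to one of them when that gene's span was the nearest protein-coding span on mm10 and lay within 50 kb. That gave 24 of 63313 peaks of acetylated histone H3 lysine 27 (H3K27ac, a mark of active promoters and enhancers) and 5 of 8394 peaks of the glucocorticoid receptor (GR). Assignment by distance does not show that a peak acts on the gene.

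The cells were mouse bone marrow-derived macrophages, differentiated for 5 days in medium with L-cell supernatant. The marrow donors were C57BL/6 males, 8 to 10 weeks old, and the labels give no genetic change in any group. They received 500 nM corticosterone (Cort, the main natural glucocorticoid of mice), 100 nM dexamethasone (Dex, a synthetic glucocorticoid) or 10 ng/ml interleukin 4 (IL4, a type 2 cytokine), each for 24 h, or vehicle. GR was profiled in 4 Cort, 4 Dex, 3 IL4 and 4 vehicle libraries in 2 batches, with the IL4 libraries in batch 2 alone. H3K27ac was profiled in 3 Cort, 3 Dex, 3 IL4 and 3 vehicle libraries, and the titles of the H3K27ac vehicle libraries give no time. The sources used here do not say whether replicates came from separate animals, so p-values measure the spread between these libraries, which may be technical. The series compared the chromatin state that glucocorticoids and IL4 each set up in macrophages. Because Cort and Dex were given at different doses, their values stand side by side and were not compared with each other.

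Hypoxia-inducible factors are pairs of an oxygen-labile alpha subunit (HIF1A, EPAS1 or HIF3A) and a stable beta subunit such as ARNT. With oxygen present, prolyl hydroxylases encoded by Egln genes mark the alpha subunits for ubiquitination by the VHL ligase and degradation, and when oxygen falls the pair binds DNA and switches on genes of glycolysis, vessel growth and red cell formation. In macrophages HIF1A is known for supporting the glycolytic, inflammatory state, and the GR is a ligand-activated transcription factor that binds chromatin in the same cells.

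The promoter sequences below are shown because the peaks of their genes lie in different places relative to the start of transcription. Each is the 250 bases before the start, read 5′ to 3′ on the gene's strand from RefSeq (GRCm38.p6, the mm10 build), and capitals mark ACGTG on either strand, the core that HIF pairs recognise. The Hif3a window (chr7:17062428-17062677, minus strand, 62.0% G or C) lies in the gap between a broad H3K27ac peak inside the gene and a short one upstream, and neither covers it. The Hif1a window (chr12:73907617-73907866, plus strand, 66.4% G or C) is covered in whole or part by an H3K27ac peak and by a GR peak. The Egln1 window (chr8:124949255-124949504, minus strand, 86.0% G or C) is partly covered by an H3K27ac peak.
Hif3a promoter: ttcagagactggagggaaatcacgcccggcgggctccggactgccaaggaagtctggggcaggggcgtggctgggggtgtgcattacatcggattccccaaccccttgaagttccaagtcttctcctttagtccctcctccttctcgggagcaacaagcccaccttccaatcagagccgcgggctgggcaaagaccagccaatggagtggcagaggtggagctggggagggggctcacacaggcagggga
Hif1a promoter: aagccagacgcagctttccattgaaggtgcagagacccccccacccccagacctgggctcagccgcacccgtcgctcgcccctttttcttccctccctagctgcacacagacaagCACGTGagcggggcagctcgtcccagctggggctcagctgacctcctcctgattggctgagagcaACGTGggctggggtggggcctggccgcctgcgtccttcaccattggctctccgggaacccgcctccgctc
Egln1 promoter: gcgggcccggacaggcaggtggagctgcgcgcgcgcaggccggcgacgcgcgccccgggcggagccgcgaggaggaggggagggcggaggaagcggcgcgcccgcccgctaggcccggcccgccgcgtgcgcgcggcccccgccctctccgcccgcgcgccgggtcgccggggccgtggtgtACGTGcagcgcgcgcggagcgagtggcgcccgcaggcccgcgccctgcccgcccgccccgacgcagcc
The Hif3a window held no ACGTG, the Hif1a window held 3 matches counted over both strands, of which 2 are the strands of a single CACGTG, and the Egln1 window held 1. Of all 32851 windows of this length in the RefSeq table, 16.6% held ACGTG or its reverse CACGT. The GR hexamer AGAACA (or TGTTCT) was absent from the 3 windows and present in 16.1% of all windows. The STAT6-type palindrome, TTC and GAA spaced by 4 bases, was present in the Hif1a window and in 5.85% of all windows, and the full GR palindrome, AGAACA and TGTTCT spaced by 3 bases, occurred in 3 of the 32851. A match is a string of letters and not a measured binding site. The table held promoters for 5 of the 6 genes. The sequence under the Hif3a GR peak, which lies inside the gene, was not used here.

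Counts in peaks ran between 900063 and 1981582 per GR library and between 6829787 and 15695771 per H3K27ac library. One GR library stood apart. Cort replicate 4 had 415731 counts outside the 1% of peaks with the most reads, against 55958 to 145518 in the other 14 GR libraries, so results that rest on it are given with and without it. Peaks lay at all 9 macrophage marker genes, whose summed H3K27ac was 3500 to 4050 read counts scaled to library size (CPM) in Cort, 3450 to 4020 in Dex, 2880 to 3290 in IL4 and 3100 to 3670 in vehicle libraries. No H3K27ac peak was assigned to Col1a1, Col1a2, Col3a1 or Pdgfra of 5 fibroblast markers, to the T cell markers Cd3e or Cd3g, to S100a9, Ly6g or Mpo of 5 neutrophil markers, or to Gata1, Hba-a1 or Hbb-bs of 4 erythroid markers. Peaks lay at all 5 endothelial markers, with sums of 217 to 267 CPM in Cort, 211 to 272 in Dex, 261 to 285 in IL4 and 246 to 263 in vehicle libraries. The 3 lymphoid markers with peaks summed to 129 to 185 CPM in Cort, 129 to 166 in Dex, 101 to 161 in IL4 and 176 to 238 in vehicle libraries, of which Ms4a1 made up most. The part of these markers in the results was not tested, and fewer marked cells cannot be told apart from less mark per cell in bulk chromatin.

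Hif3a, the HIF alpha subunit whose variants include inhibitors of the other alpha subunits, carried 3 of the 5 H3K27ac peaks called in any comparison and the 1 called GR peak, where called means an adjusted p under 0.05. Of all H3K27ac peaks, 1.55% were called with Cort against vehicle, and 14.7% higher and 12.9% lower with IL4 against vehicle. The share of all peaks called in any comparison was not counted. Of all GR peaks 12.8% were called higher with Cort and 14.7% with Dex. GR at a peak inside the gene was 7.06-fold higher with Cort and 10.6-fold higher with Dex than with vehicle. H3K27ac over the first part of the gene was 3.44-fold lower with IL4 than with vehicle. It was called higher with Dex, and with Cort only when libraries were paired by replicate number. The same H3K27ac peak stood 5.26-fold higher with Cort and 6.15-fold higher with Dex than with IL4.

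The Hif3a GR peak at chr7:17058151-17058601 is 451 bp long, and its centre lies 4051 bp downstream of the start. The next nearest protein-coding gene is Psg16, at 15.4 kb. It held 209, 169, 163 and 171 reads in Cort replicates 1 to 4, 301, 256, 219 and 287 in Dex, 8, 14 and 15 in IL4, and 13, 8, 19 and 10 in vehicle. Scaled by the trimmed mean of M-values (TMM), these were 96.8, 83.2, 92.1 and 96.2 CPM in Cort, 167, 124, 130 and 133 CPM in Dex, 5.47, 9.36 and 11.3 CPM in IL4, and 18.4, 8.92, 12.1 and 12.9 CPM in vehicle. Every steroid library lay far above every vehicle library, and the IL4 libraries overlapped the vehicle libraries.

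Means were 92.1 ± 6.29 CPM in Cort (SD, n = 4) and 139 ± 19.2 CPM in Dex (n = 4), against 13.1 ± 3.95 CPM in vehicle (n = 4). In edgeR's quasi-likelihood test with batch as a term and Benjamini-Hochberg adjustment over all 5183 tested GR peaks, the log2 fold change was 2.82 ± 0.29 for Cort (SE, adjusted p = 4.69e-05) and 3.41 ± 0.30 for Dex (adjusted p = 1.47e-05). Of all tested GR peaks 12.8% were called higher and 14.8% lower with Cort, and 14.7% and 15.6% with Dex. With 1 library left out, calls over all GR peaks ran from 1011 to 1763 for Cort and from 1270 to 1963 for Dex. By p-value the Hif3a peak ranked 10 with Cort and 2 with Dex. These comparisons share the vehicle libraries. IL4 gave 8.70 ± 2.96 CPM (n = 3) and a log2 fold change of -0.54 (95% interval -1.25 to 0.17, adjusted p = 0.539).

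Within batch 1 the Hif3a GR log2 fold changes were 2.90 for Cort and 3.55 for Dex, both called. Within batch 2 they were 2.80 (adjusted p = 0.148) and 3.35 (adjusted p = 0.0807), and no peak of the whole table was called in that batch. In batch 2 without Cort replicate 4 they were 2.83 (adjusted p = 0.00198) and 3.42 (adjusted p = 7.99e-07). Scaling by total counts gave 3.62 and 4.42, and moved the median of all GR peaks by 0.765 and 0.981 in the same direction.

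The H3K27ac peak around it, chr7:17055680-17062144, is 6465 bp long and runs from 283 to 6747 bp downstream of the Hif3a start. It held 107, 161 and 113 CPM in Cort replicates 1 to 3, 133, 177 and 136 CPM in Dex, 20.2, 31.0 and 21.2 CPM in IL4, and 69.2, 109 and 71.4 CPM in vehicle. All IL4 libraries lay below all others and all Dex libraries above all vehicle libraries, while Cort and vehicle overlapped. Replicate 2 was the highest library in each of the 4 groups.

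With Dex the mean was 149 ± 24.4 CPM (SD, n = 3), against 83.0 ± 22.1 CPM with vehicle (n = 3), a log2 fold change of 0.84 ± 0.22 (SE, edgeR adjusted p = 0.0456). That call is marginal: leaving out vehicle replicate 1, vehicle replicate 3 or any of the 3 Dex replicates put the adjusted p between 0.081 and 0.158, and scaling by low-count peaks gave 0.0658. With Cort the mean was 127 ± 29.2 CPM and the log2 fold change 0.61 (95% interval 0.14 to 1.09), which was not called (adjusted p = 0.223). Libraries with the same replicate number deviated together in this assay. With the replicate number as a block both were called, at 0.62 for Cort (adjusted p = 2.27e-05) and 0.86 for Dex (adjusted p = 1.18e-07).

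With IL4 the same Hif3a peak fell to 24.1 ± 5.94 CPM (n = 3), against 83.0 ± 22.1 CPM with vehicle, a log2 fold change of -1.78 ± 0.23 (adjusted p = 0.000135). This held with any 1 library left out, with adjusted p between 2.38e-04 and 0.00145. Tested against IL4 directly, the log2 fold change was 2.40 ± 0.24 for Cort (adjusted p = 1.61e-05) and 2.62 ± 0.24 for Dex (adjusted p = 7.28e-06).

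**Figure D1:**
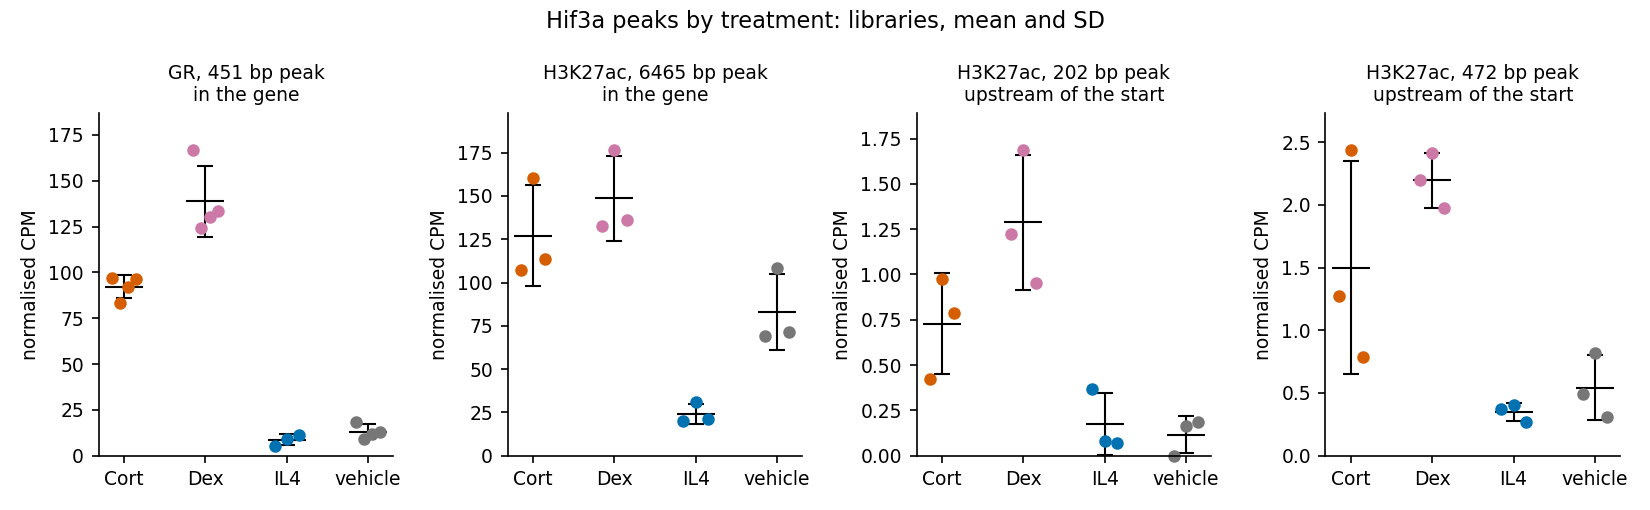
Normalised CPM of the Hif3a GR peak and of its 3 tested H3K27ac peaks in each library (points), with the group mean and SD (bars), for Cort, Dex, IL4 and vehicle. GR sits between 83.2 and 167 CPM in the steroid libraries and at 18.4 CPM or below in the others, and the 6465 bp H3K27ac peak is lowest in the 3 IL4 libraries.

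The 3 other Hif3a H3K27ac peaks are short, lie upstream of the start and hold few reads. The one at chr7:17062769-17062970, 202 bp long, lies at positions -543 to -342 relative to the start. It held 3, 14 and 7 reads in Cort, 10, 21 and 13 in Dex, 3, 1 and 1 in IL4, and 0, 2 and 3 in vehicle. It rose with Dex (log2 fold change 3.16 ± 0.64, adjusted p = 0.0123, or 9.56e-04 with the replicate block). With Cort the log2 fold change was 2.41 ± 0.68 (adjusted p = 0.107, or 0.0273 with the replicate block). Counts this low leave wide intervals, and the peak passed the filter on low counts only with its Dex libraries counted. Its Dex calls are thus not independent of that filter. Against IL4 the log2 fold changes were 2.30 ± 0.68 for Cort (adjusted p = 0.0252) and 3.04 ± 0.64 for Dex (adjusted p = 0.00327). The Cort call against IL4 was lost without Cort replicate 2 or 3 or IL4 replicate 2 or 3, with adjusted p between 0.0518 and 0.118. With the replicate block that log2 fold change was 2.28 (adjusted p = 0.0118).

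The peak at chr7:17066090-17066561, 472 bp long and at positions -4134 to -3663 relative to the Hif3a start, also had its highest mean with Dex and its next with Cort. It held 9, 35 and 7 reads in Cort, 18, 30 and 27 in Dex, 3, 5 and 4 in IL4, and 4, 10 and 5 in vehicle. Cort replicate 2 was far above the other Cort libraries. The log2 fold change was 2.02 ± 0.45 with Dex (adjusted p = 0.0204) and 1.54 ± 0.46 with Cort (adjusted p = 0.134, or 0.0166 with the replicate block). The Dex call was lost without vehicle replicate 1 or 3 or Dex replicate 1 or 3, with adjusted p between 0.0516 and 0.106. With the replicate block the Dex value was 2.06 (adjusted p = 3.86e-04). Against IL4 the log2 fold change was 2.15 ± 0.50 for Cort (adjusted p = 0.00643, and 0.0549 without Cort replicate 2) and 2.64 ± 0.48 for Dex (adjusted p = 0.00131). The block gave 2.095 for Cort (adjusted p = 5.7e-04) and 2.66 for Dex (adjusted p = 1.63e-05). A further 278 bp peak at chr7:17063460-17063737 was too low to test, with 2 to 19 reads in Cort, 3 to 8 in Dex, 2 in each IL4 and 0 to 6 in vehicle libraries.

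A second Hif3a GR peak, chr7:17033630-17033710, 81 bp long and 28757 bp downstream of the start, did not pass the filter on low counts. It held 4, 4, 0 and 72 reads in Cort replicates 1 to 4, 3, 1, 2 and 6 in Dex, 9, 4 and 3 in IL4, and 0, 2, 4 and 2 in vehicle. The high value belongs to Cort replicate 4, the library that stood apart. Of all 5 GR peaks of the 6 genes, 3 overlapped an H3K27ac peak, against 52.9% of all GR peaks.

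**Figure D2:**
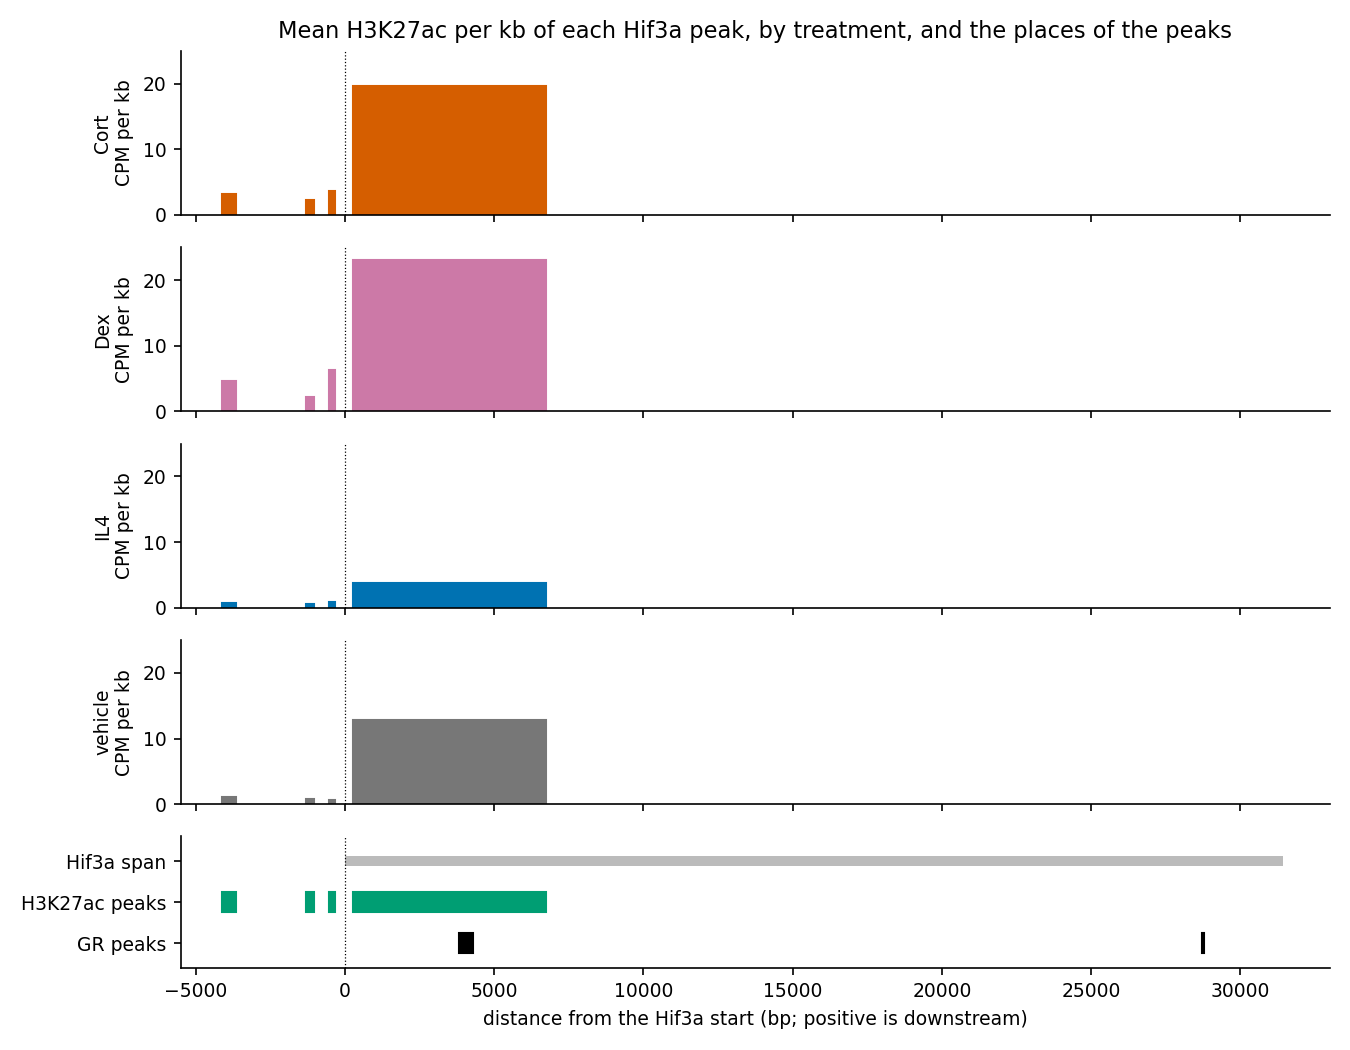
Mean H3K27ac CPM per kb of peak (vertical axes) at each Hif3a peak against the distance from the gene's start in bp, with 1 panel for each of Cort, Dex, IL4 and vehicle, and the places of the gene span, the H3K27ac peaks and the GR peaks below. The broad peak reaches 19.7 CPM per kb with Cort, 23.0 with Dex, 3.73 with IL4 and 12.8 with vehicle, and the larger GR peak lies inside it.

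Hif1a, the alpha subunit that drives much of the acute response to low oxygen, had strong H3K27ac at its start and no called change there. The promoter peak chr12:73906884-73909635 held 42.1, 41.1 and 43.2 CPM in Cort, 39.9, 47.9 and 39.3 CPM in Dex, 41.2, 42.8 and 45.3 CPM in IL4, and 39.0, 46.3 and 34.6 CPM in vehicle. The groups overlapped. The 95% intervals of the log2 fold change were -0.22 to 0.37 for Cort (adjusted p = 0.876), -0.21 to 0.38 for Dex (adjusted p = 0.802) and -0.18 to 0.40 for IL4 (adjusted p = 0.603), which leaves out a change of 1.5 times or more at this peak under the scaling used.

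Inside Hif1a, the 627 bp peak chr12:73924110-73924736 had the smallest p of the gene's 5 tested peaks in the comparisons with vehicle. It held 14, 30 and 2 reads in Cort, 17, 20 and 15 in Dex, 8, 18 and 6 in IL4, and 19, 29 and 43 in vehicle. Scaled, these were 1.98, 2.09 and 0.224 CPM in Cort, 2.08, 1.61 and 1.10 CPM in Dex, 0.986, 1.46 and 0.406 CPM in IL4, and 2.35, 2.38 and 2.67 CPM in vehicle. All treated libraries, steroid and IL4, lay below the 3 vehicle libraries. The log2 fold changes were -0.76 ± 0.54 for Cort (adjusted p = 0.602), -0.66 ± 0.53 for Dex (adjusted p = 0.558) and -1.40 ± 0.56 for IL4 (adjusted p = 0.0813), and IL4 alone was called with the replicate block (-1.50, adjusted p = 0.00449). The other 3 tested Hif1a peaks gave log2 fold changes between -0.72 and 0.32 in the comparisons with vehicle, none called. A sixth peak was too low to test.

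GR at the Hif1a start was low in all libraries. The 129 bp peak chr12:73907780-73907908 held 11, 8, 5 and 3 reads in Cort, 16, 6, 7 and 4 in Dex, 10, 8 and 4 in IL4, and 2, 2, 7 and 0 in vehicle. The groups overlapped, and the log2 fold changes were 0.24 ± 0.63 for Cort (adjusted p = 0.786), 0.59 ± 0.61 for Dex (adjusted p = 0.488) and 1.24 ± 0.68 for IL4 (adjusted p = 0.493). The interval for Dex, -0.71 to 1.89, is too wide to show whether Hif1a gained GR.

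Epas1, which encodes the alpha subunit HIF-2 alpha, had 1 H3K27ac peak with a called change. At chr17:86722917-86723201, 285 bp long and 30.7 kb from the gene, reads were 7, 15 and 20 in IL4, against 4, 5 and 4 in vehicle, with 5, 16 and 2 in Cort and 8, 7 and 10 in Dex. The 3 IL4 libraries lay above the 3 vehicle libraries. The peak passed the filter on low counts only with its IL4 libraries counted, so its IL4 call is not independent of that filter. The log2 fold change with IL4 was 1.64 ± 0.51 (adjusted p = 0.0277), and leaving out vehicle replicate 2 or 3 or IL4 replicate 2 or 3 ended the call, with adjusted p between 0.0646 and 0.118. With the replicate block the IL4 value was 1.675 (adjusted p = 0.011). Without the block the log2 fold change was 0.96 ± 0.54 with Cort (adjusted p = 0.477) and 1.00 ± 0.54 with Dex (adjusted p = 0.336).

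The highest Epas1 peak, chr17:86731740-86732837, lies 21 kb from the gene. It held 8.50, 7.67 and 5.84 CPM in Cort, 9.42, 7.32 and 6.21 CPM in Dex, 9.61, 6.32 and 7.72 CPM in IL4, and 9.04, 6.72 and 8.06 CPM in vehicle, and no comparison with vehicle called it. At the edge of the Epas1 span, chr17:86752894-86753883 averaged 5.90 CPM in Cort, 6.27 in Dex, 5.95 in IL4 and 4.35 in vehicle. For Dex the interval of its log2 fold change was 0.03 to 1.01 (adjusted p = 0.221). An 81 bp GR peak inside the highest Epas1 peak, chr17:86732333-86732413, held 15, 5, 8 and 4 reads in Cort, 3, 4, 2 and 8 in Dex, 6, 0 and 2 in IL4 and 2, 3, 7 and 3 in vehicle, too few to test.

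Egln1 encodes PHD2, the main oxygen sensor that hydroxylates HIF alpha subunits. It had 5 H3K27ac peaks, all tested, and no GR peak. Its highest peak, chr8:124949354-124950353, begins 100 bp upstream of the start. This promoter peak held 13.5, 12.4 and 16.7 CPM in Cort, 14.1, 12.9 and 14.4 CPM in Dex, 12, 12.6 and 13.3 CPM in IL4, and 14.1, 11.5 and 11.8 CPM in vehicle, with overlapping groups. The intervals of its log2 fold change were -0.17 to 0.54 for Cort, -0.20 to 0.50 for Dex and -0.33 to 0.37 for IL4.

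Near the 3′ end of Egln1, 37078 bp downstream of the start, the 826 bp peak chr8:124911764-124912589 was called higher with each steroid than with IL4. It held 5.24, 3.14 and 4.94 CPM in Cort, 5.51, 2.33 and 4.24 CPM in Dex, 1.97, 1.62 and 2.50 CPM in IL4, and 4.09, 2.87 and 3.29 CPM in vehicle. The Cort and vehicle values each lay above the IL4 values, and 1 Dex library fell within the IL4 range. Cort exceeded IL4 by 1.09 ± 0.34 on the log2 scale (adjusted p = 0.0297) and Dex by 0.96 ± 0.34 (adjusted p = 0.0498). The Cort call was lost without Cort replicate 1 or 3 or IL4 replicate 1 or 2 (adjusted p 0.0811 to 0.101), and the Dex call was lost without Dex replicate 1 or 3 or any 1 IL4 replicate, and also under total-count scaling (adjusted p = 0.0677), median-of-ratios scaling (0.0533), no count filter (0.0573), DESeq2 (0.0515) and a fit of the compared groups alone (0.0784). With the replicate block in edgeR both calls against IL4 held, at 1.08 for Cort (adjusted p = 0.00103) and 0.90 for Dex (adjusted p = 0.00426). Against vehicle the IL4 log2 fold change was -0.72 ± 0.34 (adjusted p = 0.130, or 0.0233 with the replicate block). The span of Sprtn lies 5.60 kb from this peak.

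Egln3 encodes PHD3, a HIF prolyl hydroxylase that is itself induced by low oxygen. None of its 3 H3K27ac peaks was called by edgeR in the 5 comparisons without a block, the smallest adjusted p being 0.0886. The highest, chr12:54191478-54192032, held 1.56, 1.32 and 2.24 CPM in Cort, 2.32, 2.09 and 1.90 CPM in Dex, 1.85, 1.13 and 2.78 CPM in IL4, and 3.71, 0.901 and 1.74 CPM in vehicle, with every group overlapping vehicle. The 200 bp peak beside it, chr12:54192377-54192576, held 2, 11 and 3 reads in Cort, 12, 12 and 14 in Dex, 10, 5 and 16 in IL4 and 6, 9 and 11 in vehicle. The Dex libraries of this peak lay above the vehicle libraries in reads and in CPM, but the log2 fold change was 0.65 ± 0.45 (adjusted p = 0.480). A 76 bp GR peak 47.5 kb upstream of Egln3, chr12:54251328-54251403, was too low to test and held 18 reads in Cort replicate 4 and 0 to 3 in each of the other 14 libraries.

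Vegfa, which encodes the vessel growth factor that HIF pairs induce, had 2 H3K27ac peaks inside the gene near its start and no GR peak. The higher, chr17:46031653-46032319, held 2.69, 3.14 and 1.80 CPM in Cort, 2.08, 3.14 and 1.90 CPM in Dex, 0.863, 1.78 and 1.42 CPM in IL4, and 1.61, 2.70 and 2.73 CPM in vehicle. IL4 and vehicle overlapped. The IL4 log2 fold change was -0.78 ± 0.35 (adjusted p = 0.117), or -0.80 with the replicate block (adjusted p = 0.0306). Cort gave 0.10 ± 0.34 and Dex -0.0045 ± 0.33. The intervals reach 0.83 and 0.71, so a moderate change with either steroid was not detectable at this depth.

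Over the 22 tested H3K27ac peaks of the 6 genes, Cort against vehicle called 0 by edgeR, with 4 at an unadjusted p under 0.05 and 0 by DESeq2, where 1.55% of all 59881 tested peaks were called. That background itself moved, with 929 calls for Cort and 328 to 1073 with 1 library left out (328 to 474 without vehicle replicate 2 or 3 or Cort replicate 1 or 3), and 3138 calls for Dex and 1185 to 4168 (1185 to 1578 without vehicle replicate 2 or 3 or Dex replicate 1 or 3). With the replicate block Cort called 3, the 3 tested Hif3a peaks, and calls over all peaks numbered 7531 with the block and 929 without it. Dex called 3 higher, all at Hif3a, and 0 lower, where 2.9% of all peaks were called higher and 2.34% lower. IL4 called 1 higher (Epas1) and 1 lower (Hif3a), where 14.7% of all peaks were called higher and 12.9% lower, so the share at these genes was below that of all peaks. The 202 bp Hif3a peak passed the count filter only with its Dex libraries counted, and this Epas1 peak only with its IL4 libraries. Both were thus in the test because of the group where they were high. The replicate block took the IL4 count to 5 and calls over all peaks numbered 26057 with it and 16538 without it.

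Against IL4, Cort called 4 of the 22 peaks higher and Dex also 4, the 3 Hif3a peaks and the distal Egln1 peak, where 11.3% of all peaks were called higher and 13.7% lower for Cort, and 12.1% higher and 14.6% lower for Dex. With the replicate block these comparisons called 8 and 6. The added Cort calls were Egln3 chr12:54162790-54162993 and Vegfa chr17:46031653-46032319, higher with Cort than with IL4, and Hif1a chr12:73879797-73882635 and chr12:73945275-73946366, lower. Groups did not overlap at 3 of the 22 peaks for Cort against vehicle, 7 for Dex and 5 for IL4, where 17.2%, 22.8% and 44.2% of all peaks had groups that did not overlap. For Cort against IL4 it was 6 peaks, where it was 39% of all peaks, and for Dex against IL4 5 peaks, where it was 40.9%. Median log2 fold changes over the 22 peaks were 0.109 for Cort, 0.173 for Dex and 0.0644 for IL4 against vehicle, beside 0.00277, 0.0104 and -0.023 over all peaks. Of all H3K27ac calls 75.8% were higher with Cort, 55.3% with Dex and 53.4% with IL4, and these shares were 89.4%, 62.9% and 41.3% when scaling by low-count peaks and 63.2%, 45.0% and 48.8% by total counts. Against IL4 they were 45.1% for Cort and 45.3% for Dex, or 64.8% and 61.0% by low-count peaks. Of the 2 tested GR peaks, the Hif3a peak was called with both steroids and its steroid and vehicle libraries did not overlap, where 22.2% of all GR peaks did not overlap with Cort and 27.3% with Dex. With IL4 both tested peaks overlapped vehicle, where 9.09% of all GR peaks did not. Of all GR calls 46.3% were higher with Cort and 48.5% with Dex, or 98.4% and 98.8% when scaling by total counts. No GR peak of the whole table was called with IL4 by edgeR, where 0% were called and 612 of 5183 had an unadjusted p under 0.05, and DESeq2 called 191.

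**Figure D3:**
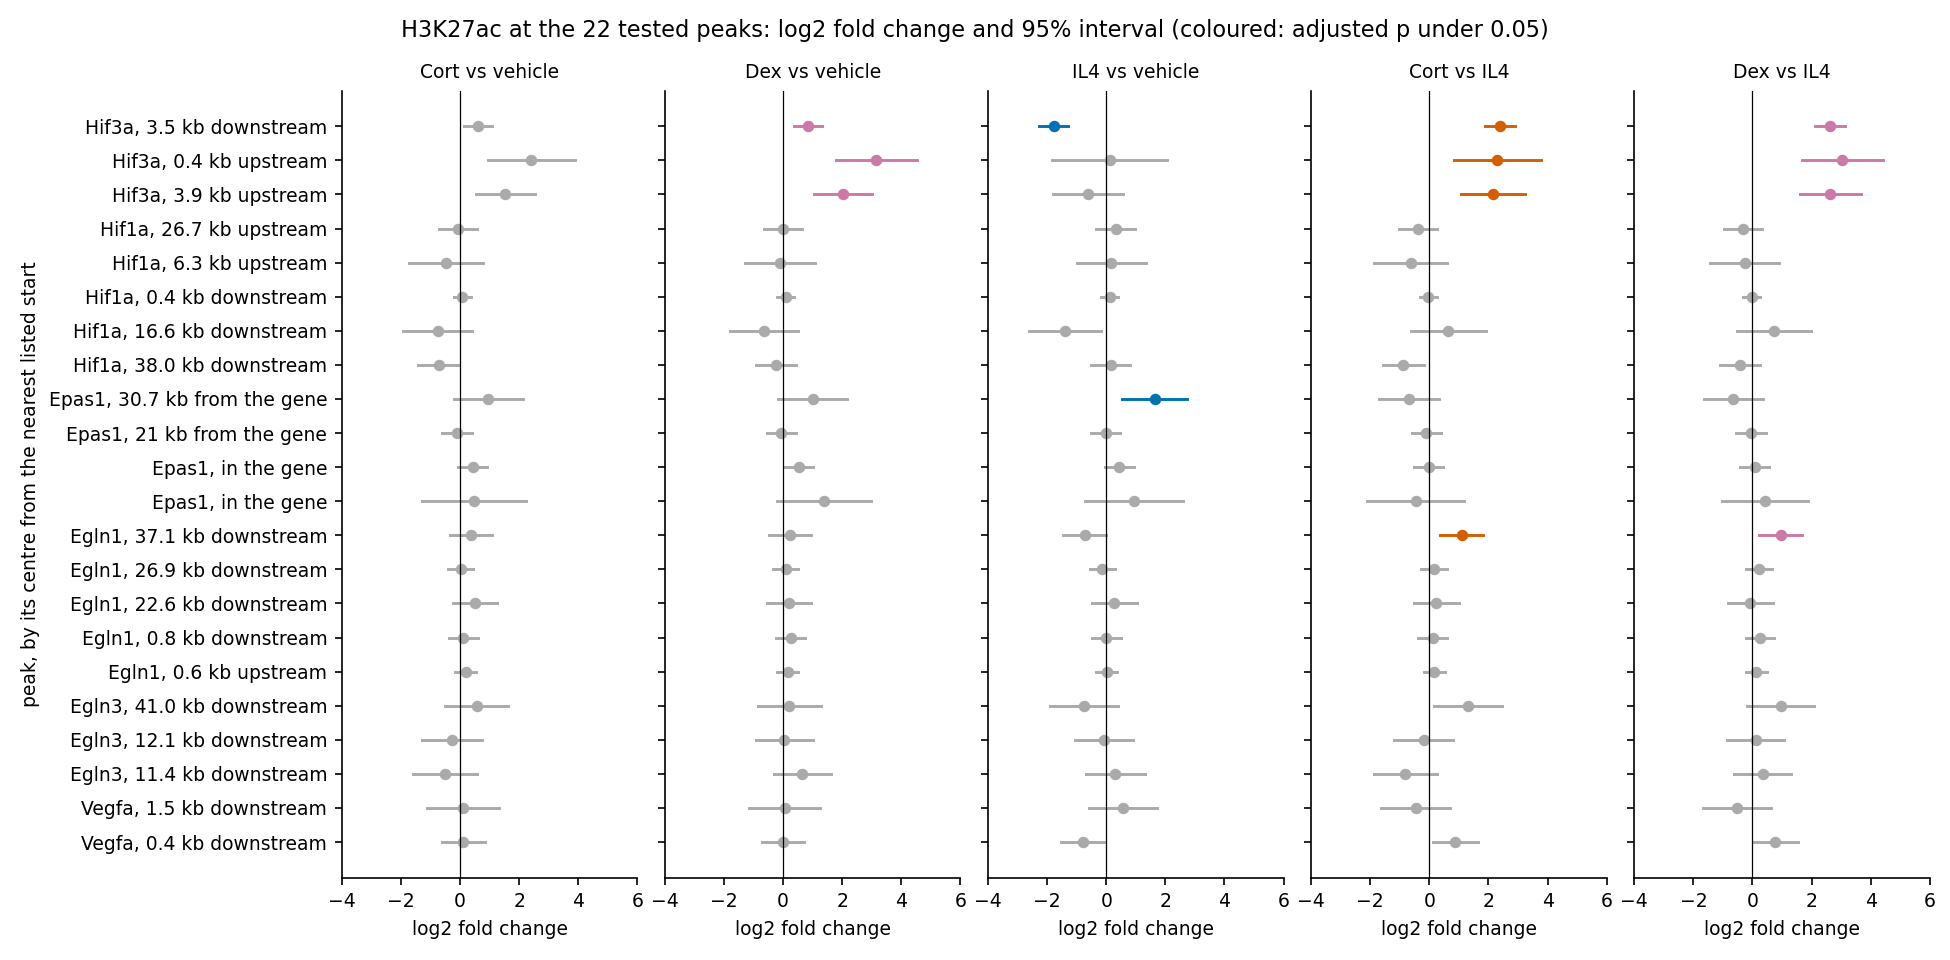
Log2 fold change of H3K27ac (horizontal axes) with its 95% interval at the 22 tested peaks of the 6 genes, with 1 panel for each comparison and coloured where the adjusted p is under 0.05. Coloured points are at Hif3a in every panel but Cort against vehicle, at Epas1 with IL4, and at the distal Egln1 peak against IL4.

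Per kb of peak, the summed H3K27ac level put Hif3a first of the 6 genes in the steroid and vehicle groups and near the bottom with IL4. Hif3a averaged 17.5 ± 4.16 CPM per kb in Cort, 20.6 ± 3.37 in Dex, 3.35 ± 0.79 in IL4 and 11.3 ± 3.02 in vehicle (SD, n = 3 each). Hif1a averaged 9.20 ± 1.37 in Cort, 9.53 ± 2.23 in Dex, 10.5 ± 0.82 in IL4 and 9.37 ± 1.08 in vehicle. In vehicle these genes lay within each other's spread, and in IL4 Hif1a stood above Hif3a in every library.

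Egln1 averaged 7.47 ± 0.74 CPM per kb in Cort, 7.36 ± 0.62 in Dex, 6.33 ± 0.31 in IL4 and 6.57 ± 0.23 in vehicle. Epas1 followed at 5.51 ± 1.41 in Cort, 5.94 ± 0.84 in Dex, 5.99 ± 0.86 in IL4 and 4.99 ± 0.52 in vehicle. Egln3 and Vegfa were lowest in vehicle, at 3.89 ± 1.78 and 3.19 ± 0.85 CPM per kb, and did not differ beyond their spread. In IL4 the levels of Egln3 (3.51 ± 1.53), Hif3a and Vegfa (2.42 ± 0.83) lay within each other's spread.

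**Figure D4:**
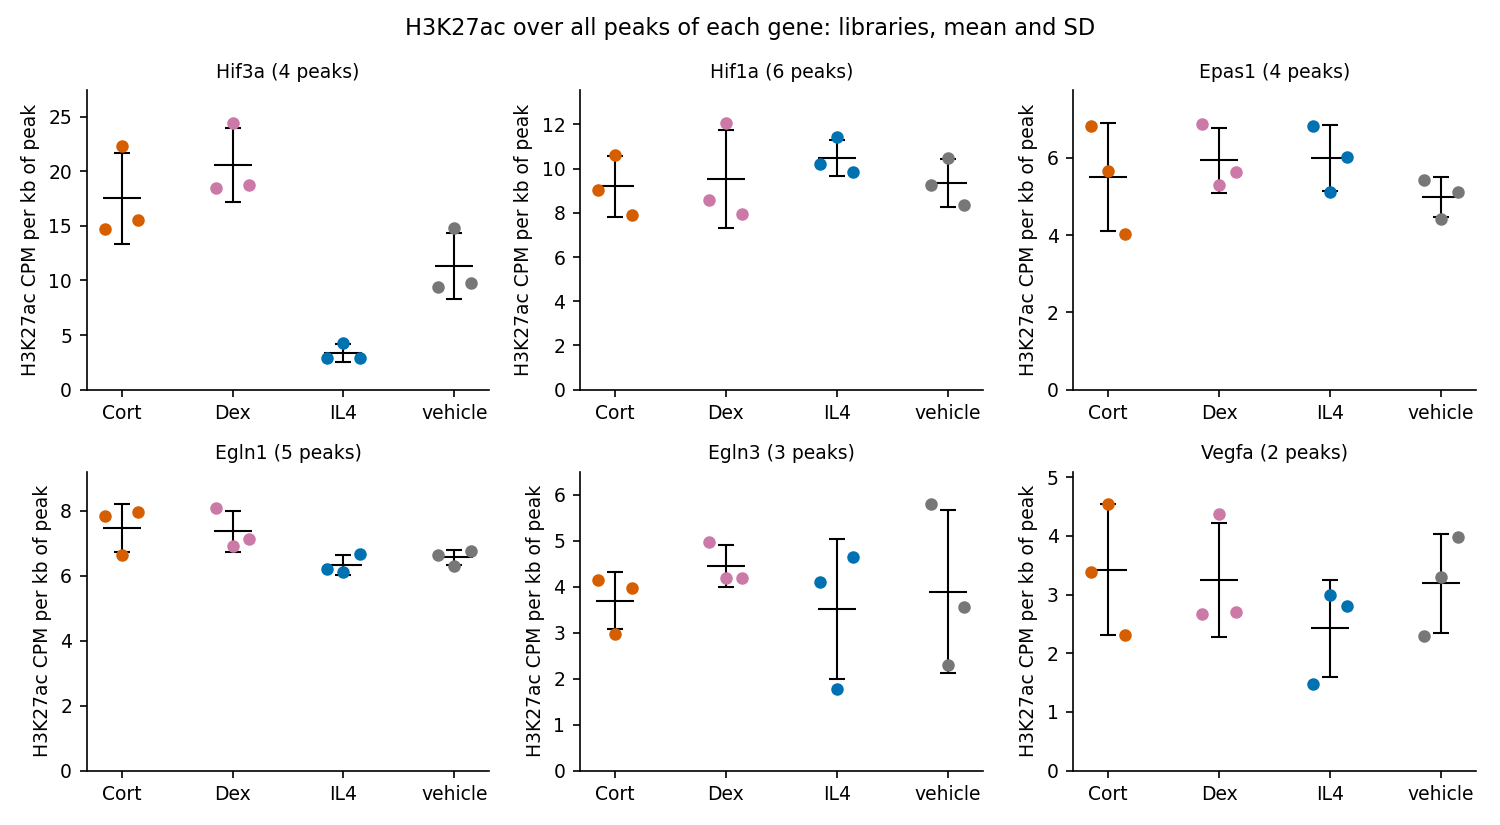
Summed H3K27ac CPM per kb of peak for each of the 6 genes in Cort, Dex, IL4 and vehicle libraries (points), with the group mean and SD (bars); each panel has its own vertical scale starting at 0. Hif3a runs between 3.35 CPM per kb with IL4 and 20.6 with Dex in group means, and the other 5 genes have groups that mostly overlap.

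Other genes of the pathway were read from lists without the 6 genes. Arnt and Arnt2, genes of beta subunits, had 24 tested H3K27ac peaks. Cort called 1 higher and 1 lower, beside 1.55% of all peaks called. Dex called 1 higher and 2 lower, beside 2.9% and 2.34%. The dimerization partner Arnt, the beta subunit, had a peak that rose with both steroids, chr3:95456127-95461546, with 123 ± 20.0 CPM in Cort and 142 ± 15.8 CPM in Dex, against 40.5 ± 2.36 CPM in vehicle. Its log2 fold changes were 1.61 ± 0.14 (adjusted p = 5.94e-05) and 1.81 ± 0.14 (adjusted p = 1.67e-05). As at Hif3a, a GR peak lies inside that H3K27ac peak. It was the only GR peak tested at Arnt and Arnt2, where 12.8% of all GR peaks were called higher with Cort and 14.7% with Dex. The Arnt GR peak held 46.4 ± 6.65 CPM in Cort and 53.0 ± 4.02 CPM in Dex, against 12.6 ± 3.62 CPM in vehicle (SD, n = 4 each), with log2 fold changes of 1.86 ± 0.28 (adjusted p = 6.54e-04) and 2.05 ± 0.28 (adjusted p = 2.28e-04). Arnt2, a related beta subunit, had its smallest-p H3K27ac peak with Cort 33.1 kb from the gene. It fell by 1.00 on the log2 scale (adjusted p = 0.0433). With Dex the smallest-p peak of Arnt2 fell by 1.37 (adjusted p = 0.00384). Both genes had peaks called in each direction with IL4, 7 higher and 3 lower of the 24, beside 14.7% and 12.9% of all peaks.

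Among 8 other genes of oxygen sensing and HIF turnover, edgeR called no H3K27ac peak with Cort or Dex (1 and 4 of 32 peaks at an unadjusted p under 0.05; DESeq2 was not counted over this list). With IL4, 5 of the 8 had peaks called higher and 3 had peaks called lower, which was 6 peaks higher and 4 lower of 32, beside 14.7% and 12.9% of all peaks. The median log2 fold change over the 32 peaks was -0.0115 with Cort, 0.0404 with Dex and 0.0204 with IL4, beside the medians of all peaks given above. An H3K27ac peak of Vhl, the ligase subunit that recognises hydroxylated HIF alpha, rose with IL4 (0.84 ± 0.14, adjusted p = 7.56e-04). One of Egln2, the third prolyl hydroxylase gene, fell by 1.35 with IL4 (adjusted p = 0.0101). A GR peak of Egln2 rose by 1.37 ± 0.35 with Cort and 1.30 ± 0.35 with Dex (adjusted p = 0.0103 each). That was 1 of the 4 tested GR peaks of this list with each steroid, and 0 were called lower. Of all GR peaks 12.8% were called higher and 14.8% lower with Cort, and 14.7% and 15.6% with Dex.

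Of 17 glycolysis genes, 2 had peaks called higher with Cort and none lower, and with Dex 2 were higher and 1 lower. That was 2 of 105 peaks with Cort, beside 1.55% of all peaks, and 3 higher and 1 lower with Dex, beside 2.9% and 2.34%. At the smallest-p peak of Pfkfb3, which makes the activator of phosphofructokinase, H3K27ac rose by 0.85 ± 0.15 with Cort (adjusted p = 0.0111) and 1.04 ± 0.15 with Dex (adjusted p = 0.00146). A peak of Eno1 (enolase) fell by 0.90 with Dex (adjusted p = 0.00749). With IL4, 6 glycolysis genes were called higher, 3 lower and 1 in both directions. That was 13 peaks higher and 11 lower of 105, beside 14.7% and 12.9% of all peaks. A peak of Hk2, a hexokinase, rose by 1.14 with IL4 (adjusted p = 3.13e-04). Medians over the 105 glycolysis peaks were 0.0242 with Cort, 0.0382 with Dex and -0.0878 with IL4. Of 22 other HIF-responsive genes with peaks, 2 were higher with Cort and 5 with Dex, and IL4 called 5 higher, 2 lower and 2 in both directions. Of the 124 peaks, 27 were called higher and 14 lower with IL4, beside 14.7% and 12.9% of all peaks. With Cort 4 were called higher, beside 1.55% of all peaks called either way, and with Dex 9, beside 2.9% higher. Among those with H3K27ac peaks higher with both steroids was Cxcr4, a chemokine receptor (2.61 with Cort, adjusted p = 2.07e-04, and 2.75 with Dex, adjusted p = 8.07e-05). The Cxcr4 peak with Cort lies 21.5 kb from the gene. Another was Ddit4, an inhibitor of mTORC1 (2.48 with Cort, adjusted p = 3.5e-04, and 3.20 with Dex, adjusted p = 2.88e-05). Medians over the 124 peaks of this list were 0.0405 with Cort, 0.0226 with Dex and 0.00283 with IL4. Of 18 tested GR peaks of the glycolysis genes, 2 were called higher and 3 lower with Cort, and 2 and 2 with Dex. Of 12 at the other HIF-responsive genes, 2 were called higher and 2 lower with Cort, and 2 and 1 with Dex. Of all GR peaks 12.8% were called higher and 14.8% lower with Cort, and 14.7% and 15.6% with Dex.

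Of 7 other VEGF family and receptor genes with peaks, none was called with Cort by edgeR (13 of 76 peaks at an unadjusted p under 0.05; DESeq2 was not counted over this list). Dex called 2 higher and 1 lower, and IL4 called 4 higher and 1 in both directions. Of the 76 peaks, 6 were called higher and 1 lower with Dex, and 21 higher and 1 lower with IL4. Of all peaks these shares were 2.9% and 2.34% with Dex, and 14.7% and 12.9% with IL4. Nrp1, a VEGF co-receptor, had a peak that rose with Dex (1.42, adjusted p = 0.00873) and another that rose with IL4 (2.15, adjusted p = 0.00042). A peak of Flt1, the receptor VEGFR1, rose with Dex (0.93, adjusted p = 0.0253) and with IL4 (1.81, adjusted p = 7.36e-05). Medians over the 76 peaks were 0.157 with Cort, 0.172 with Dex and 0.427 with IL4. Of 4 tested GR peaks of this list, edgeR called 0 with Cort and 0 with Dex. At an unadjusted p under 0.05 there were 0 with Cort and 2 with Dex. The 6 glucocorticoid control genes all had H3K27ac peaks called higher with both steroids, and of 6 IL4 control genes 4 were called higher and 1 in both directions with IL4. For the glucocorticoid genes these were 41 of 72 peaks with Cort, beside 1.55% of all peaks called, and 51 with Dex, beside 2.9% called higher. For the IL4 genes they were 18 peaks higher and 1 lower of 43 with IL4, beside 14.7% and 12.9% of all peaks.

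The H3K27ac profile of the broad Hif3a peak over the 12 libraries was most like those of peaks nearest Gng2, Kat2b and B4galt1, with a Pearson r of 0.989 for each on log2 CPM among 59881 tested peaks. For the called Egln1 peak the nearest profiles were at Tmem50b (0.983), Rnf150 (0.976) and Zfhx3 (0.97), and for the called Epas1 peak at Fbxw7 (0.913), Fam118b (0.902) and Ehmt1 (0.893). These values describe 12 points that share treatments and replicate numbers.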

How the data were processed

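GR and H3K27ac ChIP-seq of mouse bone marrow-derived macrophages was read from the deposited raw read counts per peak, over 1 peak set per assay. Per the submitters' processing notes the build was mm10 and the tools were featureCounts, MACS2, SAMtools, Bowtie2 and fastp; versions, peak merging and duplicate handling are not given in the sources used here. Per the labels' protocols, formaldehyde was the crosslinker for H3K27ac, and for GR it followed disuccinimidyl glutamate. Columns headed C were taken as vehicle by elimination. The 1 input library was not analysed here.

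The 6 genes and all lists were chosen with earlier results of these data known, so their counts are descriptions. Peaks were assigned to the nearest protein-coding span within 50 kb (RefSeq, GRCm38.p6, 21900 genes). All peaks of an assay entered edgeR 4.0.16 in R 4.3.3 (filterByExpr, TMM, quasi-likelihood F test, all groups in 1 fit, batch as a term for GR), which tested 59881 H3K27ac and 5183 GR peaks, with Benjamini-Hochberg adjustment over them and a threshold of 0.05. Fold changes are treated over vehicle, or steroid over IL4. edgeR's common biological variation was 0.24 (H3K27ac) and 0.439 (GR). In simulated counts 200 peaks per assay were changed 4-fold. Of those that passed the count filter, 92.2% were recovered for H3K27ac Dex against vehicle (14589 peaks) and 52.2% for GR (4628 peaks). The simulation gave all peaks of an assay the same spread and had no replicate pairing or batch effect, unlike the data.

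Residuals of H3K27ac libraries with the same replicate number correlated at 0.268 to 0.678 in 18 pairs, so the numbers were taken to pair the samples. Residuals with different numbers correlated at -0.449 to 0.0406 in 36 pairs. That range is not separate support, because residuals cancel within a group. Blocked values stand beside results they change. The text names every called peak of the 6 genes, the highest and the smallest-p peak per gene and assay, all GR peaks, and from each list genes with the smallest p. Alternatives were median-of-ratios, total-count and low-count-peak scaling (using the lowest 25%), no filter, DESeq2 1.42.0, the compared groups alone, the authors' filtered peaks, other distances, leaving out each library, and for GR batch and top-peak settings. Some batch settings and those without Cort replicate 4 were chosen after seeing the data.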

Additional observations from a re-analysis of the deposited data

Results flagged for a closer look

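Among the GR peaks of the 6 genes, 3 values in 15 groups of 4 libraries lay far from the rest of their group, where chance gives about 1 in 20 groups. At the GR peak 47.5 kb upstream of Egln3, Cort replicate 4 held 10.1 CPM (18 reads), against 0.463 to 0.985 CPM in the other Cort libraries. At the 81 bp GR peak inside Hif3a, Cort replicate 4 held 40.5 CPM (72 reads), against 0 to 1.97 CPM in the other Cort libraries. At the same Hif3a peak, vehicle replicate 1 held 0 CPM, against 2.23 to 2.58 CPM in the other vehicle libraries, which is 2 to 4 reads. Cort replicate 4 is also the library with the most counts outside the top 1% of peaks, and the part of this in the high values was not tested.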

How the results depend on the processing

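Over 41 single-peak results, 568 values were computed under other settings: 508 kept direction and side of the threshold, 35 lost the call, 4 gained it and 21 changed sign, all 21 at results that were not called. The Hif3a GR calls were lost in batch 2 alone, which called 0 of the tested peaks with Cort and 0 with Dex, and held with any 1 library left out, at log2 fold changes of 2.64 to 3.03 (Cort) and 3.23 to 3.62 (Dex). Replicate numbers did not pair the GR libraries (correlations -0.197 to 0.187 in 12 pairs), and the replicate block gave 2.90 for Cort and 3.47 for Dex at Hif3a; no block could be fitted for IL4, which is in batch 2 alone.

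Counts of called H3K27ac peaks moved as follows. The replicate block, which pairs the libraries, gave 3 (Cort), 5 (IL4) and 8 (Cort against IL4). Keeping the authors' filtered peaks, or peaks overlapping the gene span, gave 1 with Dex, 1 with IL4, 2 for Cort against IL4 and 2 for Dex against IL4. A 20 kb limit gave 1 with IL4, and fitting the compared groups alone gave 2 for Cort against IL4. With 1 library left out the counts were 1 to 3 (Dex), 1 to 2 (IL4), 2 to 4 (Cort against IL4) and 3 to 4 (Dex against IL4). DESeq2 gave no adjusted p for some of the low Hif3a and Epas1 peaks. The causes were not tested. Low-count scaling moved the median of all H3K27ac peaks by -0.143 (IL4), 0.233 (Cort against IL4) and 0.188 (Dex against IL4), and median-of-ratios scaling that of all GR peaks by -0.125 (Cort) and -0.112 (IL4).

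Signs changed at these peaks. At the Hif1a promoter H3K27ac peak, low-count scaling gave -0.034 (IL4), 0.20 (Cort against IL4) and 0.16 (Dex against IL4), and leaving out 1 library gave -0.0024 to 0.18 (Cort), -0.012 to 0.18 (Dex), -0.075 to 0.0026 (Cort against IL4) and -0.12 to 0.034 (Dex against IL4). At the Hif1a GR peak, Cort gave -0.31 in batch 2 alone, -0.014 there without Cort replicate 4, and -0.0029 to 1.28 with 1 library left out. At the 202 bp Hif3a peak, IL4 gave -0.029 under low-count scaling and -0.76 to 0.56 with 1 library left out. At the distal Egln1 peak, Dex gave -0.036 to 0.52 with 1 library left out. At the Egln1 promoter peak, IL4 gave -0.034 by total counts, -0.12 by low-count peaks and -0.035 to 0.13 with 1 library left out. With 3 libraries a group, peaks of a few reads, as at Epas1, Egln3 and upstream of Hif3a, can show only large changes.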
